A study of Mus musculus with 48 samples.

Results

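A set of 10 nuclear receptor genes studied in macrophages were followed through 3 stages of the splenic red pulp macrophage (RPM) lineage. The members were taken by symbol (10 of the 54735 genes in the count tables) and were *Nr1h3*, *Nr1h2*, *Rxra*, *Pparg*, *Ppard*, *Rara*, *Nr1d1*, *Nr1d2*, *Nr3c1*, and *Vdr*. RNA-seq was performed on splenic monocytes (sorted as Ly6Glo CD11bhi F4/80- cells), pre-RPMs (Ly6Glo CD11bhi F4/80lo), and RPMs (Ly6Glo CD11blo/- F4/80hi). The cells came from male Balb/c mice 10 weeks of age, either wild-type (WT) or labelled *Il1rl1*-/-, a deficiency, not restricted to a cell type, in the receptor of the cytokine IL-33. Each of the 6 groups held 4 libraries, each from a single mouse, and no group was treated. The study asked how the absence of IL-33 signaling alters the path from monocyte to RPM.

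Nuclear receptors are transcription factors whose activity is set by small lipophilic ligands. LXRα (*Nr1h3*) and LXRβ (*Nr1h2*) sense oxysterols and drive cholesterol efflux genes, PPARγ (*Pparg*) and PPARδ (*Ppard*) sense fatty acids, RARα (*Rara*) binds retinoic acid, and the vitamin D receptor (*Vdr*) binds the active form of vitamin D, all as partners of a retinoid X receptor such as RXRα (*Rxra*). The glucocorticoid receptor (*Nr3c1*) acts without RXR, and REV-ERBα (*Nr1d1*) and REV-ERBβ (*Nr1d2*) bind heme and repress genes of the molecular clock. LXRα is known in the spleen for the formation of marginal zone macrophages, and RPMs take up aged red blood cells and recycle their iron.

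The promoters below are shown because their genes changed most along the lineage, or, for *Nr1d2*, because the window holds more than 1 of the motifs searched. For *Nr1h3*, *Rxra*, *Pparg*, and *Rara*, RefSeq lists more than 1 promoter, of which 1 is printed. The sequences give the 200 bases before a RefSeq transcription start (GRCm38.p6), 5′ to 3′ on the strand of the gene. Capitals mark a match on either strand to AGGTCA (the half-site that nuclear receptors bind), CACGTG (the E-box of the clock factors), or GAGGAAGT (the PU.1-type ETS motif), and the 3 motifs do not overlap in these windows. The coordinates are chr2:91195117-91195316 (minus strand) for *Nr1h3*, chr2:27709092-27709291 (plus) for *Rxra*, chr6:115362149-115362348 (plus) for *Pparg*, chr11:98937518-98937717 (plus) for *Rara*, chr11:98775378-98775577 (minus) for *Nr1d1*, and chr14:18239107-18239306 (minus) for *Nr1d2*.
Nr1h3: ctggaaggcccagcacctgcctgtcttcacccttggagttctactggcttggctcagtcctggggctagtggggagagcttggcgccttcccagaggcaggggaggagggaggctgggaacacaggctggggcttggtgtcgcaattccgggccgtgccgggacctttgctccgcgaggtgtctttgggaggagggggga
Rxra: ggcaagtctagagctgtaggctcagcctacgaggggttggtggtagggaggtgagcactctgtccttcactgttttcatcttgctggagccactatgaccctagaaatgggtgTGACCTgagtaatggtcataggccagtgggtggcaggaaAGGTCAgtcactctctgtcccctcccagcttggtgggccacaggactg
Pparg: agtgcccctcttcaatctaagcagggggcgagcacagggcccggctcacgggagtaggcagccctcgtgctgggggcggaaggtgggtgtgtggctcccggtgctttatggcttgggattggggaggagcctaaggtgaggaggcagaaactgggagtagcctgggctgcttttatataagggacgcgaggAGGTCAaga
Rara: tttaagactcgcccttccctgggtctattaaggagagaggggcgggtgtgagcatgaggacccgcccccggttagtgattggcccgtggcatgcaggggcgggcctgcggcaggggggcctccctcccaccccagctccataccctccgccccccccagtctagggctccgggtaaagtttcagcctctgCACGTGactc
Nr1d1: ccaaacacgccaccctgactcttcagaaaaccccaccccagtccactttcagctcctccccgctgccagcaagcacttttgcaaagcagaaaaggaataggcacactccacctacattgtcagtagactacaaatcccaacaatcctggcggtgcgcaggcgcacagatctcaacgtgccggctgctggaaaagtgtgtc
Nr1d2: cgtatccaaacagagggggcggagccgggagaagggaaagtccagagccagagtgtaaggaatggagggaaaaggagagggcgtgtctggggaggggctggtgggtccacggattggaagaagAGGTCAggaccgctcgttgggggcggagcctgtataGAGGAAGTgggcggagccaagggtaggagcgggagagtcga

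The *Rxra* window held AGGTCA at offsets -87 and -48 from the start, the *Pparg* window at -9, and the *Nr1d2* window at -77, where a GAGGAAGT at -41 followed. The *Rara* window held CACGTG at -10, and the *Nr1h3* and *Nr1d1* windows held none of these letters. The promoters not printed differ from these. The *Rxra* promoter nearer the start of the gene (chr2:27676951-27677250) and a *Pparg* promoter at chr6:115421816-115422115 held none of the 3 motifs, and another *Pparg* promoter held AGGTCA at -28. Over all 16 promoters that RefSeq lists for 9 of the members (250 bases before to 50 after the start), 5 promoters of 4 members held AGGTCA, against 16.3% of the 32851 promoters of the genome. CACGTG was found in 2 overlapping promoters of *Rara* and GAGGAAGT in the promoter of *Nr1d2*, against 7.15% and 3.2% of all promoters. These matches describe the letters only.

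In the annotation used for counting (GRCm38), *Nr1h3* (ENSMUSG00000002108) spans chr2:91184061-91202834 on the minus strand, *Rxra* (ENSMUSG00000015846) chr2:27676440-27762957, *Pparg* (ENSMUSG00000000440) chr6:115360951-115490399, and *Rara* (ENSMUSG00000037992) chr11:98927818-98974942, the last 3 on the plus strand. *Nr1d1* (ENSMUSG00000020889) lies at chr11:98767932-98775333 on the minus strand, and 263 of its exonic bases (8.55%) are also exons of *Thra* on the opposite strand. Reads were counted with regard to strand, so that the 2 genes were counted apart. Values are read-pair counts over the exons of a gene.

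The libraries held between 3562367 and 6559454 counts (median 4728764), and a single gene, *Gm42418*, took 24.4% to 38.8% of them. A count of 3 or less, which equals 0.457 to 0.842 counts-per-million (CPM) of the library totals, was not told apart from 0. The CPM values given below use library sizes scaled by the TMM method. *Il1rl1*, the gene named by the genotype label, went against it in 2 cell types: monocytes had 28, 19, 12, and 13 counts in WT mice and 51, 73, 71, and 64 in the libraries labelled *Il1rl1*-/-, and pre-RPMs had 18, 15, 13, and 24 against 50, 76, 42, and 65. RPMs had 5, 9, 7, and 13 counts against 1, 7, 3, and 6. Which part of the gene the allele removes was not given in the sources used here, so genotypes are named by their labels throughout. All 10 RPM markers were higher and all 7 monocyte markers lower in RPMs than in pre-RPMs in both genotypes, as labelled. Monocytes were not set apart from pre-RPMs by the monocyte markers, whose summed CPM was 493 to 1073 in WT monocytes and 957 to 1181 in WT pre-RPMs, and 657 to 1190 and 1039 to 1260 in the libraries labelled *Il1rl1*-/-. Markers of other cells were present as well. The summed CPM of 8 NK cell markers, none of them at 0, was 1676, 1949, 588, and 1095 in WT monocytes and 1607, 1216, 520, and 829 in monocytes labelled *Il1rl1*-/-, against 74.0 to 150 and 16.03 to 55.8 in pre-RPMs. The sum of 7 erythroid markers, none at 0, was 1369 to 24139 in WT RPMs and 894 to 15539 in RPMs labelled *Il1rl1*-/-, highest in mice 3 and 4 of both genotypes, against 11.03 to 638 and 11.1 to 35.98 in pre-RPMs.

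The order of the nuclear receptor genes by level differed between RPMs and the cells before them. On a per-length scale (RPKM, the CPM per kilobase of exon, mean ± SD, n = 4 mice per group), *Rara* was the highest of the 10 members in WT monocytes (22.8 ± 9.77) and WT pre-RPMs (33.1 ± 2.82), and *Nr1h3* was the highest in WT RPMs (37.4 ± 2.29), followed by *Rxra* (28.6 ± 1.43), *Pparg* (18.9 ± 1.67), and *Nr3c1* (13.9 ± 1.34). The same 4 genes led in the same order in RPMs labelled *Il1rl1*-/-, at 39.2 ± 3.59, 31.2 ± 2.44, 23.1 ± 1.54, and 13.9 ± 0.371. The summed level of the 10 members was 58.9 ± 12.7 in WT monocytes, 72.5 ± 4.21 in pre-RPMs, and 126 ± 4.94 in RPMs, and 62.7 ± 9.11, 79.1 ± 6.62, and 137 ± 8.66 in the libraries labelled *Il1rl1*-/-. *Nr1h3* made up 2.17% of that sum in WT monocytes, 3.57% in pre-RPMs, and 29.7% in RPMs, whereas *Rara* made up 37.5%, 45.6%, and 6.48%. *Vdr* was the lowest member in every group. For 8 of the 10 members the highest group mean was that of an RPM group; *Rara* and *Ppard* were highest in pre-RPMs. When the 6 groups were put in order for each member, 12 of 50 steps between neighbours were free of overlap between libraries. For *Nr1h2* every group overlapped with its neighbours, and *Vdr* was near the limit of counting. The shares over all genes were not computed for these counts, which are given as values only.

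**Figure D1:**
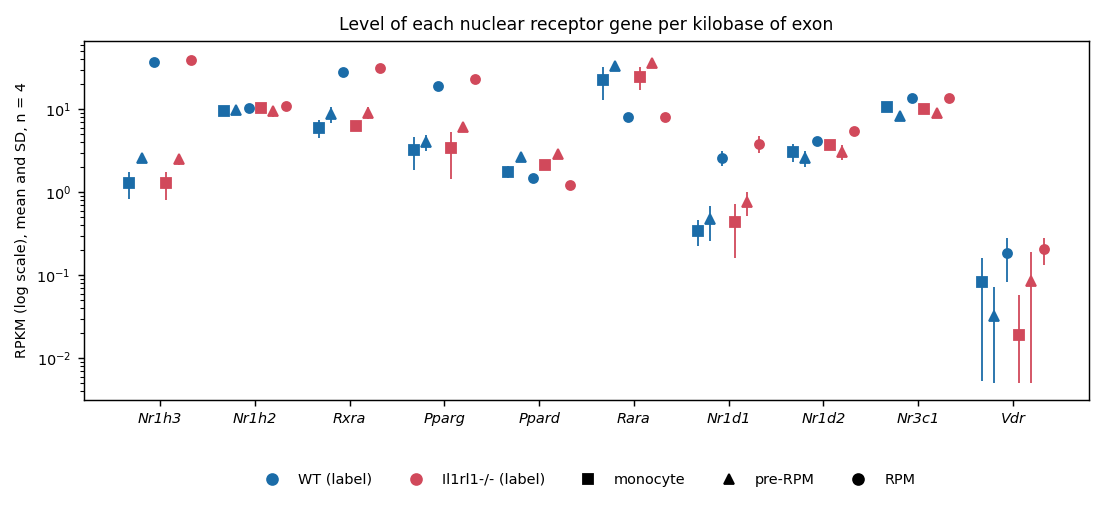
Level of the 10 nuclear receptor genes per exon length (RPKM, log axis) in the 6 groups, where points are means of 4 mice and bars are SDs, with bars cut at the lower end of the axis for *Vdr*. *Nr1h3* lies at 1.31 in WT monocytes and 37.4 in WT RPMs, while *Rara* lies at 22.8 and 8.12.

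The LXR genes differed from each other along the lineage. *Nr1h3* rose 13.9-fold from pre-RPM to RPM in WT mice and 14.99-fold in the libraries labelled *Il1rl1*-/-, while *Nr1h2* was level. In WT mice, the CPM of *Nr1h3* in mice 1 to 4 was 1.99, 2.60, 4.36, and 4.19 in monocytes, 7.44, 6.04, 6.62, and 5.95 in pre-RPMs, and 94.4, 86.1, 99.9, and 95.3 in RPMs. The 3 WT groups did not overlap, and the step into RPMs was the larger of the 2. In the libraries labelled *Il1rl1*-/-, the values were 1.72, 3.78, 4.52, and 2.88 in monocytes, 5.68, 7.29, 6.85, and 5.41 in pre-RPMs, and 107, 103, 98.7, and 86.0 in RPMs, again without overlap. From pre-RPM to RPM the log2 fold change was 3.80 (SE 0.12, adjusted p = 9.7e-11) in WT mice and 3.91 (SE 0.13, adjusted p = 1.19e-12) in mice labelled *Il1rl1*-/- by the quasi-likelihood test of edgeR, with p adjusted over all genes tested by the Benjamini-Hochberg method. *Nr1h2* had a CPM of 28.1, 33.7, 35.1, and 32.4 in WT monocytes, 31.9, 34.4, 33.1, and 33.8 in pre-RPMs, and 30.7, 35.6, 36.6, and 37.2 in RPMs, and these groups overlapped throughout. Its log2 fold change from pre-RPM to RPM was 0.03 (adjusted p = 0.854 by edgeR) in WT mice and 0.16 (adjusted p = 0.274) in mice labelled *Il1rl1*-/-. Per length, *Nr1h3* stood at 0.134 ± 0.0411 of *Nr1h2* in WT monocytes, 0.262 ± 0.0365 in pre-RPMs, and 3.60 ± 0.377 in RPMs (n = 4), with no overlap between the 3 groups, and at 0.125, 0.269, and 3.60 in the libraries labelled *Il1rl1*-/-. Bulk RNA cannot tell fewer cells of a type from less RNA per cell, here and for the genes below.

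**Figure D2:**
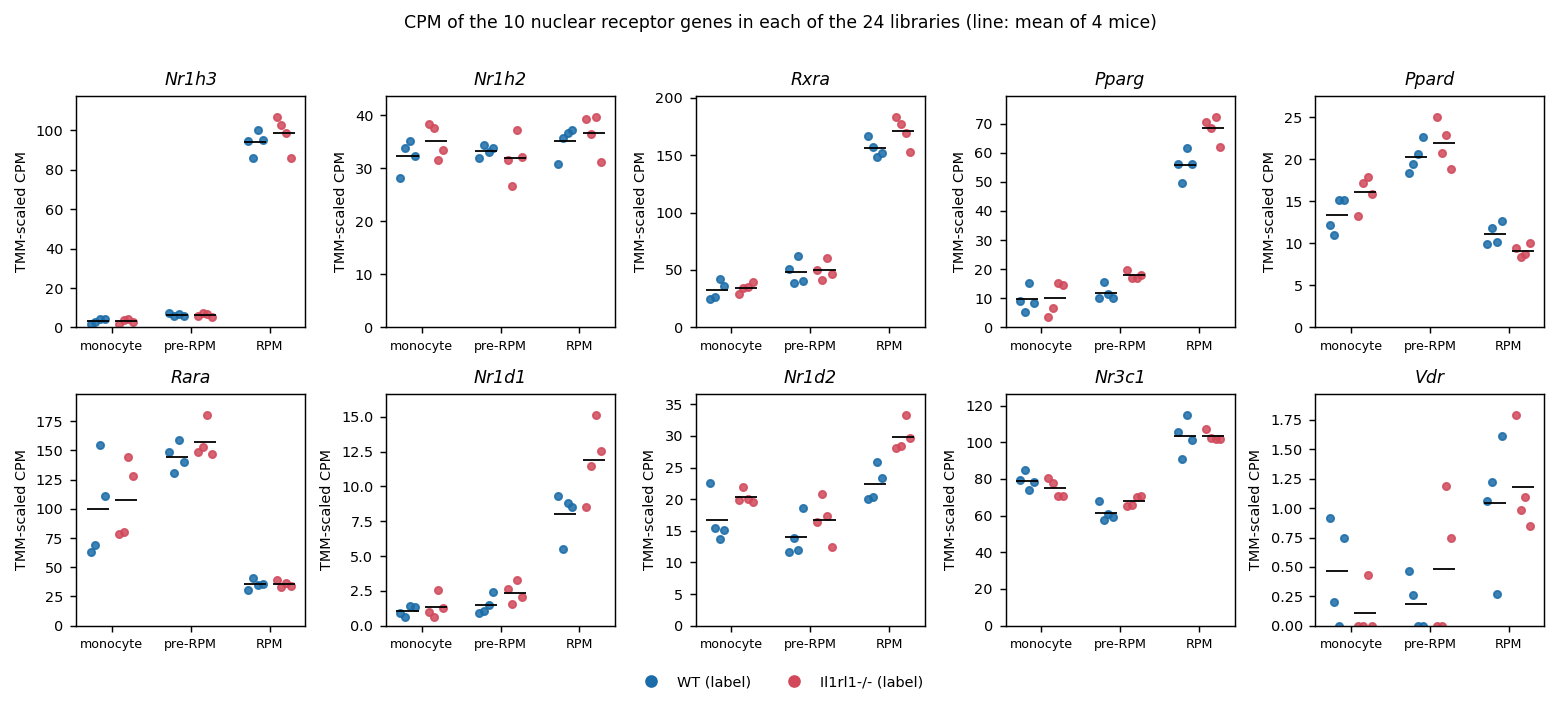
CPM of each of the 10 nuclear receptor genes in each of the 24 libraries, 1 panel per gene with its own axis, with points for single mice and a line for the mean of 4. RPM points of *Nr1h3*, *Rxra*, *Pparg*, and *Nr1d1* lie above, and those of *Rara* below, all monocyte and pre-RPM points.

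*Rxra* and *Pparg*, which encode partners in the PPARγ heterodimer, rose together into RPMs. The CPM of *Rxra* in WT mice was 25.05, 26.6, 42.0, and 36.1 in monocytes, 51.2, 38.6, 62.3, and 40.0 in pre-RPMs, and 167, 157, 149, and 152 in RPMs. Monocytes and pre-RPMs overlapped, and every RPM library was above both. The rise from pre-RPM to RPM was 3.15-fold (log2 1.66, SE 0.14, adjusted p = 2.95e-07 by edgeR) in WT mice and 3.33-fold (log2 1.73, SE 0.12, adjusted p = 5e-09) in mice labelled *Il1rl1*-/-, where RPMs held 183, 177, 169, and 152 against 49.9, 41.2, 60.4, and 46.8 in pre-RPMs. *Pparg*, the fatty acid sensor, had a CPM of 9.16, 5.39, 15.4, and 8.54 in WT monocytes, 10.2, 15.5, 11.5, and 10.2 in pre-RPMs, and 56.1, 49.7, 61.7, and 56.1 in RPMs. Only the RPMs stood apart, by 4.57-fold over pre-RPMs (log2 2.19, SE 0.14, adjusted p = 1.76e-08 by edgeR). In the libraries labelled *Il1rl1*-/- its CPM was 3.69, 6.72, 15.3, and 14.6 in monocytes, 19.9, 17.1, 17.0, and 17.9 in pre-RPMs, and 70.6, 68.3, 72.4, and 62.0 in RPMs, and the 3 groups did not overlap. The rise from pre-RPM to RPM there was 3.66-fold (log2 1.87, SE 0.10, adjusted p = 3.17e-10 by edgeR).

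*Ppard*, the more widely expressed PPAR gene, took the opposite course. Its CPM was 12.2, 10.98, 15.1, and 15.1 in WT monocytes, 18.4, 19.4, 20.6, and 22.6 in pre-RPMs, and 9.95, 11.8, 10.2, and 12.7 in RPMs. Pre-RPMs were above both other groups in every WT library, and monocytes and RPMs overlapped. In WT mice, the log2 fold change from pre-RPM to RPM was -0.90 (SE 0.14, adjusted p = 0.000105 by edgeR), which is less than the 2-fold that a call between cell types required. In the libraries labelled *Il1rl1*-/-, *Ppard* fell 2.48-fold, from 25.1, 20.7, 22.9, and 18.8 to 9.42, 8.33, 8.77, and 10.0 CPM (log2 -1.31, SE 0.14, adjusted p = 1.27e-06 by edgeR). Per length, *Pparg* stood at 1.79 ± 0.595 of *Ppard* in WT monocytes, 1.51 ± 0.371 in pre-RPMs, and 12.9 ± 2.33 in RPMs, and at 1.56 ± 0.826, 2.11 ± 0.227, and 19.2 ± 2.44 in the libraries labelled *Il1rl1*-/- (n = 4 each). The RPM ratios did not overlap with those of the earlier stages in either genotype.

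*Rara*, the retinoic acid receptor with the highest per-length level of the members before the RPM stage, fell 4.20-fold from pre-RPM to RPM in WT mice and 4.57-fold in mice labelled *Il1rl1*-/-. In WT mice its CPM was 63.2, 68.9, 155, and 111 in monocytes, 149, 130, 159, and 140 in pre-RPMs, and 30.5, 40.5, 35.0, and 35.8 in RPMs. All RPM libraries were below all others, while monocytes spread widely and overlapped with pre-RPMs. The monocytes of mice 1 and 2, with the lowest *Rara* in each genotype (78.2, 80.5, 144, and 128 CPM in those labelled *Il1rl1*-/-), also had the highest sums of NK cell markers; the part of these cells in the value was not tested. The log2 fold change from pre-RPM to RPM was -2.07 (SE 0.12, adjusted p = 4.17e-09 by edgeR) in WT mice and -2.19 (SE 0.10, adjusted p = 7.88e-11) in mice labelled *Il1rl1*-/-, where the CPM went from 148, 153, 180, and 147 to 39.01, 33.3, 36.8, and 33.6. Between monocytes and RPMs *Rara* fell 2.85-fold in WT mice (log2 -1.51, SE 0.27, adjusted p = 0.000795 by edgeR), but without the RPM libraries of mice 3 and 4, where erythroid markers were highest, the value of -1.49 had an adjusted p of 0.0167 and was no longer called. Per length, *Rxra* stood at 0.275 ± 0.0465 of *Rara* in WT monocytes, 0.263 ± 0.0388 in pre-RPMs, and 3.57 ± 0.552 in RPMs (n = 4), so that RXRα transcripts were fewer than those of RARα before the RPM stage and more numerous in RPMs.

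The heme-binding repressors of the clock were both highest in RPMs. *Nr1d1* was near the limit of counting before that stage, with 6, 3, 6, and 9 counts in WT monocytes and 4, 4, 6, and 10 in pre-RPMs, and reached 44, 27, 33, and 37 counts in WT RPMs. In CPM, the pre-RPM values of 0.93, 1.05, 1.47, and 2.38 lay below the RPM values of 9.31, 5.49, 8.82, and 8.54, a rise of 5.22-fold (log2 2.38, SE 0.32, adjusted p = 2.24e-05 by edgeR). In the libraries labelled *Il1rl1*-/- it rose from 11, 9, 11, and 11 to 38, 70, 69, and 59 counts (log2 2.33, SE 0.27, adjusted p = 2.43e-06 by edgeR). *Nr1d2* had a CPM of 22.6, 15.4, 13.8, and 15.1 in WT monocytes, 11.6, 13.9, 12.01, and 18.6 in pre-RPMs, and 20.1, 20.3, 25.9, and 23.3 in RPMs. RPMs lay above pre-RPMs and overlapped with monocytes, and the log2 fold change from pre-RPM to RPM was 0.62 (SE 0.17, adjusted p = 0.0062 by edgeR) in WT mice and 0.77 (adjusted p = 0.000308) in mice labelled *Il1rl1*-/-, both under 2-fold.

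By group mean, *Nr3c1* was lowest in pre-RPMs in both genotypes. Its CPM was 79.6, 84.7, 73.9, and 78.1 in WT monocytes, 67.9, 57.5, 60.8, and 59.3 in pre-RPMs, and 106, 91.0, 115, and 101 in RPMs, and these groups did not overlap. The log2 fold change of the glucocorticoid receptor gene from monocyte to pre-RPM was -0.37 (SE 0.11, adjusted p = 0.0418) and from pre-RPM to RPM 0.70 (SE 0.11, adjusted p = 9.13e-05) in WT mice by edgeR, and from pre-RPM to RPM 0.55 (adjusted p = 4.25e-05) in mice labelled *Il1rl1*-/-, all under 2-fold. From monocyte to pre-RPM in the latter mice it was -0.14, with an interval from -0.32 to 0.04 (adjusted p = 0.341 by edgeR). There the mean CPM was 75.0 in monocytes and 67.8 in pre-RPMs, and the libraries did not overlap. The difference between genotypes in this change was 0.22 (unadjusted p = 0.0964 by edgeR) and was not called. *Vdr* was barely detected. Its counts were 6, 1, 0, and 5 in WT monocytes, 2, 1, 0, and 0 in pre-RPMs, and 5, 6, 1, and 7 in RPMs, and 0, 0, 2, and 0, then 0, 0, 4, and 4, then 8, 6, 5, and 4 in the libraries labelled *Il1rl1*-/-. *Vdr* did not pass the filter on low counts in any comparison. In exact 2-sided permutation tests of log2 CPM (12 tests of *Vdr* and *Nr1d1* outside the fits, smallest possible p = 0.0286), the lowest p was 0.0286, for *Vdr* between RPMs and monocytes labelled *Il1rl1*-/-, with an adjusted p of 0.343, and so this test could call no member. When every gene with at least 1 count was tested, *Vdr* was called higher there by edgeR (log2 3.14, adjusted p = 0.00318) and missed the threshold of 0.01 by DESeq2 (log2 3.41, adjusted p = 0.0188), against monocytes with 2 counts in all.

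Counted over the members, 5 of the 9 tested were called between pre-RPM and RPM in WT mice (4 higher, 1 lower), beside 24.7% of all genes tested, where a call required an adjusted p under 0.01 and more than 2-fold. With the libraries labelled *Il1rl1*-/- the count was 6 of 9, beside 26% of all genes, the sixth being *Ppard*. At an adjusted p under 0.05 with no fold threshold, 8 of 9 passed in each genotype, beside 50.4% and 54.1%. RPMs and pre-RPMs did not overlap for 8 of 9 members in each genotype, beside 46.6% and 49.4% of all genes. The median log2 fold change of the 9 members was 0.70 in WT mice and 0.77 in mice labelled *Il1rl1*-/-, beside -0.0012 and -0.0018 over all genes. Between monocytes and RPMs, 5 of 9 members were called in WT mice (beside 23.9%) and 5 of 9 in mice labelled *Il1rl1*-/- (beside 25.9%), namely *Nr1h3* (log2 4.82 and 4.91), *Rxra* (2.25 and 2.30), *Pparg* (2.53 and 2.75), *Nr1d1* (2.87 and 3.11), and *Rara* (-1.51 and -1.59). At an adjusted p under 0.05 alone, 6 and 8 of 9 passed, beside 46% and 49.5%, and the groups did not overlap for 6 and 8, beside 44.6% and 46.8%. These comparisons share the RPM libraries with those from the pre-RPM and are set beside them as values only. All 7 erythroid markers were higher in RPMs than in pre-RPMs, and the summed CPM of 6 T cell markers, none at 0, was 39.8 to 82.5 in WT RPMs against 6.86 to 17.2 in pre-RPMs. The summed CPM of 7 eosinophil markers was also higher in RPMs, at 293 to 426 against 54.2 to 104 in WT mice. In mice labelled *Il1rl1*-/- it was 327 to 408 against 57.5 to 91.0, with *Ear1* at 0 in RPMs. Most of the RPM sum was *Ccr3* (mean 36.3 in WT pre-RPMs and 310 in RPMs), the only marker tested that was called higher. The means of *Siglecf* (5.17 and 1.00 in WT mice), *Il5ra* (5.18 and 0.365), *Prg2* (11.03 and 5.78), *Ear1*, and *Epx* were lower in RPMs in both genotypes. *Ear2* was higher in WT RPMs (19.4 and 22.4) and lower in those labelled *Il1rl1*-/- (22.8 and 18.6). The part of other cells in the members' values was not tested. Without the RPM libraries of mice 3 and 4, a setting chosen after seeing the data, the WT log2 fold changes from pre-RPM to RPM were 3.74 for *Nr1h3*, 1.71 for *Rxra*, 2.11 for *Pparg*, 2.27 for *Nr1d1*, and -2.07 for *Rara*, and all 5 were still called.

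**Figure D3:**
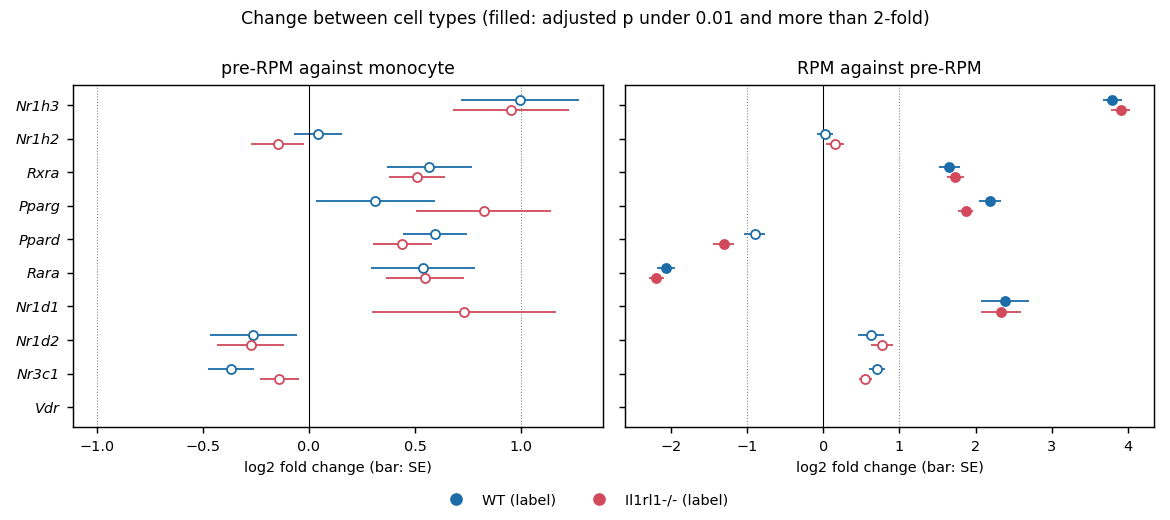
Log2 fold change (± SE) of each nuclear receptor gene from monocyte to pre-RPM and from pre-RPM to RPM in WT mice and mice labelled *Il1rl1*-/-, with filled points for changes called at an adjusted p under 0.01 and more than 2-fold. No point is filled from monocyte to pre-RPM, whereas *Nr1h3* reaches 3.80 and 3.91 and *Rara* -2.07 and -2.19 from pre-RPM to RPM.

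None of the members was called between monocytes and pre-RPMs, 0 of 8 tested in WT mice (beside 3.57% of all genes) and 0 of 9 in mice labelled *Il1rl1*-/- (beside 4.85%), by edgeR and by DESeq2. At an unadjusted p under 0.05 there were 4 of 8 and 5 of 9, beside 31.9% and 30.6% of all genes. At an adjusted p under 0.05 with no fold threshold, 3 and 2 passed, beside 14.6% and 17.1%, and groups did not overlap for 3 and 6 members, beside 20.9% and 22.3%. The values nearest to a call in WT mice were those of *Nr1h3* (log2 0.99, SE 0.28, adjusted p = 0.0362 by edgeR) and *Ppard* (log2 0.60, SE 0.15, adjusted p = 0.0252), and in mice labelled *Il1rl1*-/- *Nr1h3* (log2 0.95, SE 0.27, adjusted p = 0.0329) and *Rxra* (log2 0.51, SE 0.13, adjusted p = 0.0209). All 8 NK cell markers were lower in pre-RPMs than in monocytes in both genotypes, and the summed CPM of 8 neutrophil markers, none at 0, was 599 to 1949 in WT monocytes against 173 to 234 in pre-RPMs. Without the monocyte libraries of mice 1 and 2, chosen after seeing the data for their NK cell markers, the value of *Nr1h3* in WT mice was 0.61 (adjusted p = 0.255 by edgeR) and that of *Rara* 0.12 (0.54 with all libraries).

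Between genotypes no member was called at an adjusted p under 0.05, by edgeR or by DESeq2, in any of the 3 cell types. In monocytes this was 0 of 8 members tested, beside 0.0614% of all genes; at an unadjusted p under 0.05 it was also 0, beside 3.59%, and log2 differences ran from -0.08 to 0.27. The genotypes overlapped for all 8 in monocytes, beside 2.34% of genes that did not. In pre-RPMs it was 0 of 8, beside 0.552%, and 1 of 8 at an unadjusted p under 0.05, beside 8.8%. That gene was *Pparg*, with 19.9, 17.1, 17.0, and 17.9 CPM in the libraries labelled *Il1rl1*-/- and 10.2, 15.5, 11.5, and 10.2 in WT pre-RPMs. All 4 libraries labelled *Il1rl1*-/- were above all 4 WT libraries, which held for no other member in pre-RPMs; 4.97% of all genes tested did not overlap, and 2.42% of all genes were higher in this way in the libraries labelled *Il1rl1*-/-. The log2 difference was 0.60 (SE 0.16, interval from 0.29 to 0.91), and its adjusted p was 0.121 by edgeR and 0.255 by DESeq2; it passed without WT pre-RPM replicate 2 (log2 0.75, adjusted p = 0.0342). In the same cells 3 of 5 NK cell markers tested were lower and 1 dendritic cell marker higher in the libraries labelled *Il1rl1*-/-. The summed CPM of 5 B cell markers was 16.4 to 31.5 there and 35.2 to 52.2 in WT pre-RPMs, with *Ms4a1* and *Pax5* called lower, and that of 6 basophil or mast cell markers was 2.36 to 3.56 (*Fcer1a* and *Prss34* at 0) and 6.57 to 34.3; the part of these cells in the value was not tested.

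In RPMs 0 of 9 members were called between genotypes, beside 0.233% of all genes, and 3 of 9 had an unadjusted p under 0.05, beside 7.27%. *Nr1d2* had 28.02, 28.4, 33.3, and 29.6 CPM in RPMs labelled *Il1rl1*-/- and 20.1, 20.3, 25.9, and 23.3 in WT RPMs (log2 0.41, SE 0.12, adjusted p = 0.359 by edgeR). *Pparg* had 70.6, 68.3, 72.4, and 62.0 against 56.1, 49.7, 61.7, and 56.1 (log2 0.28, SE 0.09, adjusted p = 0.522 by edgeR). For both genes all libraries labelled *Il1rl1*-/- were above all WT libraries; 4.33% of all genes did not overlap, and 2.6% were higher in this way. The summed CPM of the 10 RPM markers was likewise higher in every RPM library labelled *Il1rl1*-/- (8560 to 8859) than in every WT one (6336 to 8175), with 0 of 10 called by edgeR and 3 (*Spic*, *Hmox1*, and *Slc40a1*) at an unadjusted p under 0.05. That of the 8 neutrophil markers was lower, at 1.53 to 5.38 (*Ly6g* at 0) against 9.70 to 16.1, and *S100a9*, the 1 tested, was called lower. Their part in the members' values was not tested. *Nr1d1* gave a log2 difference of 0.57 (SE 0.22, adjusted p = 0.614 by edgeR), and its groups overlapped at 8.52 to 15.1 against 5.49 to 9.31 CPM. The intervals of the remaining 6 members in RPMs lay within -0.61 and 0.31, so that a difference of 2-fold lies outside them. The *Nr1h3* interval was -0.13 to 0.25 and that of *Rara* -0.21 to 0.22. With mouse number as a block, the genes called between genotypes went from 7 to 27 in monocytes and from 26 to 81 in RPMs, and no member was among them. By deviations from the group means, the best match in the other genotype had the same number for 2 of 4 in monocytes and 1 of 4 in RPMs.

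**Figure D4:**
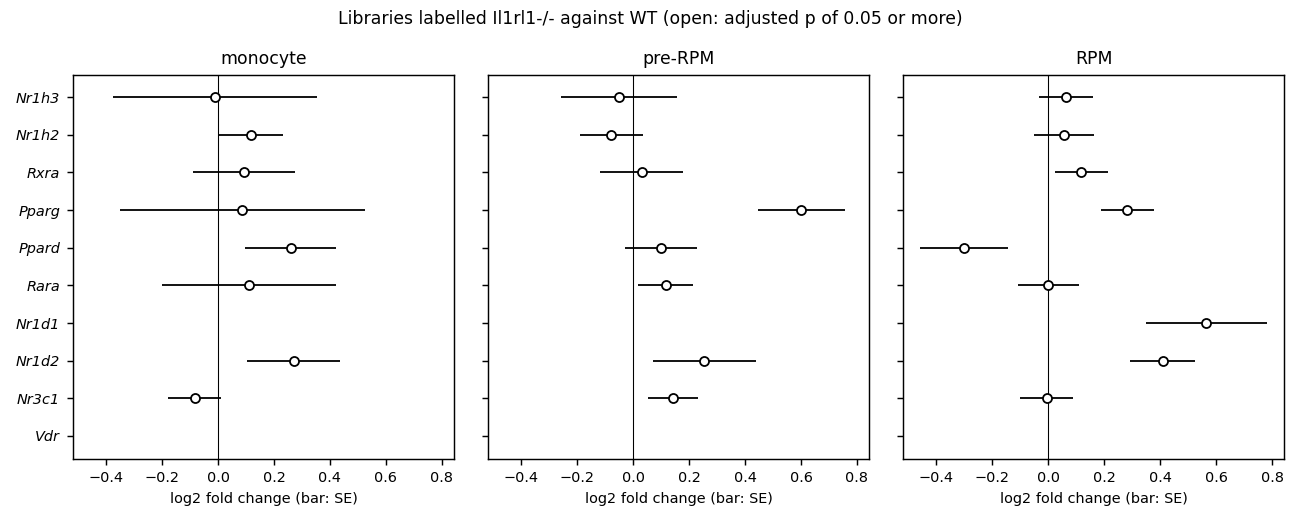
Log2 difference (± SE) between libraries labelled *Il1rl1*-/- and WT libraries for each nuclear receptor gene, in 1 panel per cell type, positive where the first are higher. All points are open, since none was called; the highest is *Pparg* in pre-RPMs at 0.60.

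The change along the lineage was compared between genotypes as an interaction. From monocyte to pre-RPM, 0 of 9 members were called by edgeR or DESeq2, 0 of 9 had an unadjusted p under 0.05 (beside 3.8% of all genes), and none of all genes was called (0%). From pre-RPM to RPM, 0 of 9 were called by either tool, beside 0.107%, and 1 of 9 had an unadjusted p under 0.05, beside 7.52%. That was *Ppard*, with a log2 difference in change of -0.39 (SE 0.19, interval from -0.76 to -0.02, adjusted p = 0.664 by edgeR). Its fall was therefore called with the libraries labelled *Il1rl1*-/- and not in WT mice, without the 2 changes differing after adjustment. For *Nr1h3* the difference in change was 0.12 with an interval from -0.23 to 0.48, for *Pparg* -0.31 from -0.64 to 0.03, and for *Rara* -0.10 from -0.40 to 0.19.

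Genes downstream of the receptors were read from fixed lists, with pre-RPM to RPM as the step at which the members moved. Of 14 LXR target genes tested in WT mice, 7 rose and 2 fell, with a median log2 fold change of 1.03. The cholesterol exporters *Abca1* (2.91) and *Abcg1* (2.31) and the lipoprotein lipase gene *Lpl* (3.55) rose, while the phospholipid transfer gene *Pltp* (-2.77) and *Smpdl3a* (-1.88) fell. *Apoe*, a lipid carrier gene, had a log2 fold change of -0.03 and was not called. The engulfment receptor gene *Mertk* rose from 2.08 ± 2.32 to 501 ± 40.8 CPM and the macrophage survival factor gene *Cd5l* from 1.82 ± 2.33 to 136 ± 30.3 (mean ± SD, n = 4). In mice labelled *Il1rl1*-/-, 7 of 15 rose and 2 fell, with *Abca1* at 3.87 and *Abcg1* at 1.92. The 4 oxysterol metabolism genes tested in WT mice lay between -0.83 and 0.33, within 2-fold, and 2 were lower at an adjusted p under 0.05. Of all genes, 50.4% passed that threshold in either direction. *Cyp27a1*, which makes an LXR ligand, stood at -0.83 in WT mice and -0.80 in mice labelled *Il1rl1*-/-.

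Of 12 PPAR target genes tested in WT mice, 3 rose and 1 fell, with a median of 0.32, and the same counts were found with the libraries labelled *Il1rl1*-/-. *Angptl4*, an inhibitor of lipoprotein lipase (3.16 and 3.40 in the 2 genotypes), and *Creg1* (2.57 and 2.99) rose, whereas the fatty acid carrier gene *Fabp4* fell (-1.53 and -2.19). The WT call of *Fabp4* was lost without WT RPM replicate 1 (-1.31). The third that rose, the factor gene *Klf15*, was at or under 1 count in every pre-RPM library. *Cd36*, the fatty acid and lipoprotein receptor gene, stood at 0.11 in WT mice and -0.79 in mice labelled *Il1rl1*-/- and was called in neither. Of 8 retinoid genes tested in WT mice 4 rose and none fell, with a median of 0.74, among them the RAR target genes *Asb2* (5.32 and 4.78) and *Tgm2* (3.72 and 3.50), while *Rara* fell. *Aldh1a1*, which makes retinoic acid, was at 0.976 ± 1.11 CPM in WT pre-RPMs, near the limit of counting, and was also called higher in RPMs. It spread from 3.66 to 82.6 CPM in WT RPMs and from 3.11 to 58.4 in RPMs labelled *Il1rl1*-/-. In each genotype its highest and lowest values were in the RPM libraries with the highest and lowest sums of erythroid markers. The part of erythroid cells in its value was not tested.

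Of 16 clock genes tested in WT mice, 2 rose and 3 fell, with a median of 0.18. The repressor gene *Nfil3* fell from 15.3 ± 4.16 to 0.258 ± 0.308 CPM (at most 3 counts in a WT RPM library), and *Ciart* (-1.54) and *Per1* (-1.31) fell, while *Per3* (1.53) and *Bhlhe40* (1.06) rose. The call of *Bhlhe40* was lost without WT pre-RPM replicate 3 (0.93) and without WT RPM replicate 4 (0.97). *Dbp* (0.67) and *Arntl* (0.66), output and core genes of the clock, were not called in WT mice. In mice labelled *Il1rl1*-/-, 2 of 17 rose, *Arntl* (1.33) among them, and 5 fell. The time of day at which the mice were killed was not given in the sources used here.

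The 14 glucocorticoid receptor target genes tested divided evenly, with 5 higher and 5 lower in each genotype and a median of -0.06 in WT mice. The hemoglobin scavenger receptor gene *Cd163* (5.97 and 7.15) and the chaperone gene *Fkbp5* (1.38 and 1.76) rose, and *Anxa1* (-5.13 and -6.04) and *Tsc22d3*, the glucocorticoid-induced leucine zipper gene (-1.70 and -1.79), fell. *Mertk* stands on this list as well as among the LXR target genes. The 5 chaperone and steroid metabolism genes tested in WT mice lay between -0.28 and 0.80, within 2-fold, and 2 were higher at an adjusted p under 0.05. Of all genes, 50.4% passed that threshold in either direction. Of the vitamin D list only *Cd14* was tested, at 4.95 ± 0.495 CPM in WT pre-RPMs and 53.3 ± 7.41 in RPMs (log2 3.38).

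Among 39 other nuclear receptor genes, 13 were tested in WT mice, of which 2 rose and 2 fell with a median of 0.20. The thyroid hormone receptor gene *Thrb*, at no more than 2 counts in a WT pre-RPM library, reached 15.4 ± 4.02 CPM in WT RPMs, and the mineralocorticoid receptor gene *Nr3c2* rose from 0.604 ± 0.291 to 11.3 ± 2.40 CPM. *Rarg*, the RARγ gene, fell with *Rara* (-2.81), and the orphan receptor gene *Nr4a1* fell (-2.64). *Rxrb*, which encodes another RXR, stood at -0.54 in WT mice and -0.45 in mice labelled *Il1rl1*-/- and was not called. Of 19 coregulator genes, 3 rose in WT mice and none fell (median 0.05): the coactivator genes *Ppargc1b* (2.53) and *Ncoa4* (2.37), the latter also the ferritin receptor of iron recycling, and the corepressor gene *Nrip1* (1.98). *Ncoa4* spread from 51.5 to 123 CPM in WT RPMs and from 64.2 to 105 in RPMs labelled *Il1rl1*-/-. In each genotype it was highest in the RPM library with the highest sum of erythroid markers, and the part of erythroid cells was not tested. All medians stand beside -0.0012 over all genes in WT mice, and 14% of all genes were called higher and 10.7% lower at this step.

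**Figure D5:**
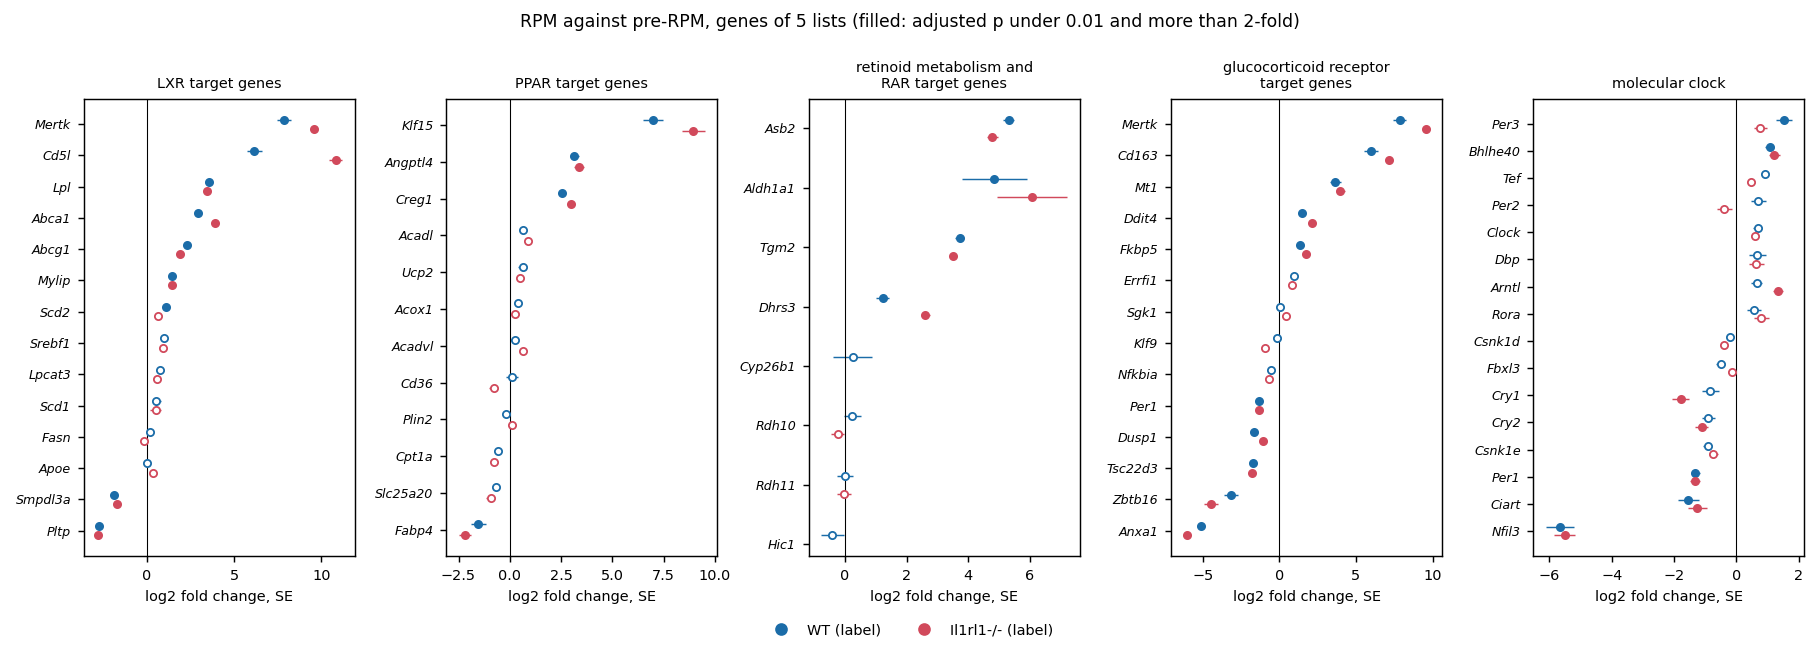
Log2 fold change from pre-RPM to RPM of the tested genes of 5 lists, 1 point per gene, in WT mice and mice labelled *Il1rl1*-/-, with filled points for called genes. LXR target genes in WT mice reach from -2.77 to 7.85, and glucocorticoid receptor target genes from -5.13 to 7.85.

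From monocyte to pre-RPM, 7 of 98 pathway genes tested were called in WT mice, beside 3.57% of all genes, and all 7 were lower. They included *Mylip* (-1.50), which degrades the LDL receptor, and *Fasn* (-1.10) among 12 LXR target genes, *Bhlhe40* (-1.46) among 17 clock genes, *Fkbp5* (-1.18) among 12 glucocorticoid receptor target genes, *Hsd11b1* (-2.37), which regenerates active glucocorticoid, among 6 chaperone and steroid metabolism genes, and *Nr4a3* (-2.72) among 12 other receptors. The PPAR target genes (from -0.73 to 0.81), retinoid genes (-0.56 to 0.56), and coregulator genes (-0.59 to 0.60) all lay within 2-fold there. When each of the 8 libraries was left out in turn, the call of *Fasn* was lost for 7 libraries, that of *Fkbp5* for 6, that of *Nr4a3* for 4, and that of *Bhlhe40* for 2, while *Mylip* and *Hsd11b1* remained called. With mouse number as a block, *Fasn* was at -1.09 (adjusted p = 0.0116 by edgeR) and was no longer called. In mice labelled *Il1rl1*-/-, 13 of 97 pathway genes tested were called from monocyte to pre-RPM, beside 4.85% of all genes. Between genotypes edgeR called none of the pathway genes, that is, 0 of 99 tested in monocytes (2 at an unadjusted p under 0.05, beside 3.59% of all genes), 0 of 92 tested in pre-RPMs (11, beside 8.8%), and 0 of 100 tested in RPMs (15, beside 7.27%).

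*Abca1*, the main LXR target gene of cholesterol efflux, was the 1 of 106 pathway genes tested whose change from pre-RPM to RPM differed between genotypes. Its CPM was 15.6, 17.3, 20.6, and 18.8 in WT pre-RPMs and 138, 124, 143, and 157 in WT RPMs, and 11.1, 12.4, 9.23, and 12.1 and then 169, 181, 182, and 160 in the libraries labelled *Il1rl1*-/-. The pre-RPM values labelled *Il1rl1*-/- were all below the WT values, and the RPM values were all above. The interaction was 0.98 on the log2 scale (SE 0.16, adjusted p = 0.00972 by edgeR), while *Nr1h3* gave 0.12 and *Nr1h2* 0.14 in the same test. The differences within pre-RPMs (-0.67, adjusted p = 0.0562) and within RPMs (0.29, adjusted p = 0.531) did not pass by edgeR. The interaction did not pass with library totals as the only scaling (0.81, adjusted p = 0.258) or with all 24 libraries in a single fit (0.97, adjusted p = 0.398 by edgeR).

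Over the 24 libraries, which share cell types and scaling, the members formed groups by their log2 CPM. *Nr1h3* correlated with *Rxra* at r = 0.984 and with *Pparg* at 0.947, *Pparg* with *Rxra* at 0.943, and *Rara* with *Ppard* at 0.912, while *Rara* correlated with *Nr3c1* at -0.933 and with *Nr1h3* at -0.807 (Pearson). The genes whose pattern was most like that of *Nr1h3* included *Igsf8* (0.995) and *Vav2* (0.993). Those most like *Rxra* were *Sdc3* (0.991), *Ctsb* (0.987), and *Hmox1*, which degrades heme (0.987), and those most like *Pparg* were *Treml4* (0.984), *Nav1* (0.975), and *Lima1* (0.974). *Camkk2* (0.99), *Plekhg3* (0.989), and *Nadk* (0.988) were most like *Rara*, and *Sbno2* (0.952), *Stx3* (0.95), and *Tmpo* (0.948) most like *Ppard*. *Ano6* (0.972), *Lgals3bp* (0.965), and *Nid2* (0.962) were most like *Nr1d1*, and *Agpat3* (0.968), *Mdh1* (0.967), and *Reep5* (0.964) most like *Nr3c1*. *Nr1d2* and *Nr1h2* followed no other gene as closely, with *Alad*, an enzyme of heme synthesis, at 0.845 and *Gm25541* at 0.682 as their nearest. Since 12842 genes were searched over only 3 cell types, these correlations are descriptions without a test.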

How the data were processed

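RNA-seq was analysed in 24 libraries of splenic monocytes, pre-RPMs, and RPMs; the 24 chromatin accessibility samples of the series (48 samples in all) were not analysed here. Reads were aligned by the authors with STAR 2.5.1, and the deposited values are counts of read pairs over exons joined by gene name (per the file headers, featureCounts 1.6.2 with the reverse-stranded setting and Ensembl release 95 of GRCm38), not normalized or filtered. The depth of 3562367 to 6559454 counts per library limits *Vdr* and *Nr1d1* most, and the floor was set at 3 counts.

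Groups follow the labels. Each comparison was fitted to its own groups with edgeR 4.0.16 and limma 3.58.1 under R 4.3.3 (filterByExpr, TMM, quasi-likelihood F test, Benjamini-Hochberg adjustment), with the SE derived from the F statistic, and genotype differences in change were tested as interactions. Intervals are the log2 value ± 1.96 SE and can be narrower than the F test implies. For *Rara* from WT monocyte to pre-RPM, the interval was 0.06 to 1.02 at an unadjusted p of 0.0502 by edgeR. A call required an adjusted p under 0.05 between genotypes, and an adjusted p under 0.01 with more than 2-fold between cell types. CPM used TMM factors over 24 libraries (0.797 to 1.38), and log2 CPM a prior count of 2. Members outside a fit were compared with exact permutation tests. Python 3.11.15, NumPy 2.4.6, pandas 2.3.3, SciPy 1.17.1, and matplotlib 3.10.9 were used for the remaining steps. Only the edgeR test between WT RPMs and pre-RPMs was checked on simulated counts, without a fold threshold. The genes changed in that simulation were not low in count, so it does not cover members such as *Vdr*. The genotype, interaction, block, DESeq2, and permutation tests were not checked in this way.

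The labels number the mice 1 to 4 in each genotype, so that same-numbered libraries of a genotype share an animal (correlation of their deviations from the group means -0.0394 to 0.306), while those of different genotypes do not. Deviations from the group means correlated between same-numbered libraries of different genotypes at 0.118 to 0.452 in monocytes, 0.0452 to 0.155 in pre-RPMs, and 0.149 to 0.182 in RPMs, and mouse number was tried as a block throughout. Between genotypes and in the interactions, this block joins different animals that have the same number. The animals that cell types share within a genotype were therefore not modelled on their own in the interactions. The alternatives tried were DESeq2 1.42.0, RLE factors, library totals as the only scaling, a looser filter (1 count in any library), a stricter one (10 counts in each library), a fit shared by the 24 libraries, no fold threshold, the mouse number as a block, a prior count of 0.5, omission of *Gm42418*, leaving out single libraries, and, chosen after seeing the data, leaving out the monocyte libraries of mice 1 and 2 or the RPM libraries of mice 3 and 4.

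The members, pathway lists, and marker lists were chosen with earlier results of these data known. Besides the members, genes were named by rule: per list and WT comparison of cell types up to 3 called genes with the largest rise and 3 with the largest fall whose groups did not overlap, 11 defining genes whatever their values, the 3 genes most correlated with each member, and *Il1rl1*. Some genes that this rule names are not reported here. Promoters were taken from RefSeq (GRCm38.p6) by symbol, and 9 of the 10 members matched.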

Additional observations from a re-analysis of the deposited data

Results flagged for a closer look

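Of 58 groups of 4 libraries of the members, 2 held a library far from the other 3, where the rule applied is expected to mark about 5% by chance. *Nr1d1* in WT RPMs was lowest in mouse 2, at 5.49 CPM, with the next at 8.54 CPM (gap over range 0.834 on the log2 scale), and *Nr3c1* in RPMs labelled *Il1rl1*-/- was highest in mouse 1, at 107 CPM, with the next at 102 CPM (gap over range 0.892).

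The change from pre-RPM to RPM differed between genotypes, by the interaction test of edgeR, for *Abca1*, with a log2 difference of 0.98 (adjusted p = 0.00972), and for *Il1rl1*, with -2.67 (SE 0.48, adjusted p = 0.0197). For *Il1rl1* the difference between genotypes in pre-RPMs was 1.52 (adjusted p = 0.00107 by edgeR), higher in the libraries labelled *Il1rl1*-/-, and its RPM libraries held 13 counts or fewer.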

How the results depend on the processing

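No member value with an unadjusted p under 0.05 changed sign under any alternative run (0 of 40 values between cell types, 0 of 4 between genotypes, and 0 of 1 interaction), whereas 4 of 13, 10 of 21, and 9 of 17 values with a p of 0.05 or more did. Values with a low p were split off for lying far from 0 against their error, and the alternatives used the same counts. A sign change was therefore unlikely for them from the start, and the contrast is a description only. Without a fold threshold (adjusted p under 0.05), the members called were 3 between WT pre-RPMs and monocytes and 2 with the libraries labelled *Il1rl1*-/-, 8 between WT RPMs and pre-RPMs, and 8 between RPMs and monocytes labelled *Il1rl1*-/-. With the fold threshold, the last comparison called 5 members, and 3 with a minimum of 10 counts in every library. That minimum removed *Nr1d1*, which had 4, 3, 12, and 6 counts in these monocytes. With the 24 libraries in a shared fit, 1 member, *Nr1h3*, was called between WT pre-RPMs and monocytes (1.00, adjusted p = 0.0026 by edgeR). Between genotypes in pre-RPMs, 1 member, *Pparg*, was called with library totals as the only scaling (0.84, adjusted p = 0.0135), with every gene of at least 1 count (0.62, adjusted p = 0.0317), and when WT pre-RPM replicate 2 was left out, so that leaving out 1 library gave 0 to 1 members there. Library totals moved the median of all genes by 0.226 in that comparison, -0.36 from WT monocyte to pre-RPM, and 0.22 from WT pre-RPM to RPM.

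From WT monocyte to pre-RPM, *Nr1h2* (0.04) was -0.32 and *Pparg* (0.31) -0.065 with library totals; *Nr1h2* was -0.016 without the monocyte libraries of mice 1 and 2, and -0.016 to 0.090 with 1 library left out. From WT pre-RPM to RPM, *Nr1h2* (0.03) was -0.053 without the RPM libraries of mice 3 and 4 and -0.0017 to 0.094 with 1 library left out. From WT monocyte to RPM it was -0.073 with library totals (0.10 otherwise). *Apoe* (-0.03 from WT pre-RPM to RPM) was 0.17 with library totals, 0.0071 with at least 10 counts in every library, 0.019 when the 24 libraries shared a fit, and -0.10 to 0.048 with 1 library left out, and *Cd36* (0.11) was -0.48 without the RPM libraries of mice 3 and 4 and -0.20 to 0.36 with 1 library left out. The causes were not tested.

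With the mouse number as a block, 0 of 96 member values changed their call, and *Pparg* between genotypes in pre-RPMs stood at 0.60 (adjusted p = 0.0931 by edgeR). The genes called between genotypes went from 59 to 145 in pre-RPMs and from 13 to 24 for the interaction from pre-RPM to RPM. Among the genes named, the block changed the call of *Fasn* (WT monocyte to pre-RPM) and of *Abca1* between genotypes in pre-RPMs (adjusted p = 0.0424 by edgeR). In pre-RPMs, same-numbered libraries of different genotypes correlated at 0.0452 to 0.155, and the best match had the same number for 4 of 4. Counts of all genes called from WT monocyte to pre-RPM were 396 by edgeR, 694 by DESeq2, 904 with library totals, 1094 with every gene of at least 1 count, 217 with at least 10 counts in every library, 772 with a fit shared by all libraries, and 239 without the monocyte libraries of mice 1 and 2. A minimum of 10 counts in every library lowered the counts from 2776 to 1467 between WT RPMs and pre-RPMs, from 2769 to 1470 between WT RPMs and monocytes, and, with the libraries labelled *Il1rl1*-/-, from 2973 to 1542 and from 3009 to 1536. From monocyte to pre-RPM with those libraries the count was 543, and 264 with that minimum, 1060 with every gene of at least 1 count, and 321 without the monocyte libraries of mice 1 and 2. Between genotypes, DESeq2 called 26 genes in monocytes and 60 in RPMs, against 7 and 26 by edgeR, and 36 against 13 for the interaction. With every gene of at least 1 count, the genotype counts were 139, 265, and 272 in the 3 cell types and 78 and 224 for the 2 interactions (0 and 13 otherwise). With a fit shared by all libraries they were 16 in monocytes, 17 in pre-RPMs, and 3 for the later interaction, and with library totals 11, 110, and 6. A minimum of 10 counts gave 3, 39, and 5, and RPMs without mice 3 and 4 gave 83. Depth limits *Vdr* and *Nr1d1*, and the floor of 3 counts covers counting error only.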
